A study of Arabidopsis thaliana with 20 samples.

Results

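Alpha-expansins are secreted proteins that loosen the cell wall without cutting its polymers, and they act best when the wall is acid. They let walled plant cells yield to turgor, and plants carry many copies that differ in where and when they are transcribed. In roots, some members serve root hairs, and others are known from the growth of cells leaving the meristem and from the emergence of lateral roots. The 8 genes described here are EXPA1 (AT1G69530), EXPA4 (AT2G39700), EXPA5 (AT3G29030), EXPA6 (AT2G28950), EXPA10 (AT1G26770), EXPA14 (AT5G56320), EXPA15 (AT2G03090) and EXPA17 (AT4G01630). They were chosen by identifier as a list that leaves out the root hair pair EXPA7 and EXPA18, and all 8 are among the 33201 genes of the table. The list is not the whole family outside root hairs: EXPA9 and EXPA12, for example, are not in it.

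RNA was sequenced from root tip cells of Arabidopsis thaliana Col-0 seedlings of the genotype PET111:GFP, whose reporter marks the columella, the central root cap. Every seedling carried the reporter, and the labels give no treatment. Root pieces labelled elongation zone (EZ) or meristematic zone (MZ) were turned into protoplasts. Cells lacking GFP were sorted, a step that leaves out cells with the columella reporter in both. How fully columella cells were left out was not tested. Ages were 3, 4, 5, 6 and 7 days, with 2 biological replicates for each zone and age, which gives 10 libraries labelled EZ and 10 labelled MZ. cDNA was amplified from low amounts of RNA before sequencing. Values are FPKM, fragments scaled to transcript length and to library size, so that genes and libraries can be set side by side. Further scaling between libraries still moved some results, as given below. Effects of the amplification on levels of single genes were not tested. Bulk values do not show in which cells a gene was transcribed, so the place of the 8 genes outside root hairs is background and was not tested.

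Markers of dividing cells did not follow the zone names, so libraries are called by their labels. Whether the zone labels are exchanged was not tested; if they are, every EZ minus MZ direction given here turns round with respect to the zones. The summed FPKM of 6 such markers was 51.7 to 177 in the libraries labelled EZ and 12.4 to 52.9 in those labelled MZ, and 5 of the 6 were called higher in EZ with 0 lower. Of all genes tested, 20.6% were called higher in EZ and 7.77% lower. Of 4 root cap markers, 3 were called lower in EZ, and their sum was 198 to 1033 FPKM in EZ and 476 to 1666 FPKM in MZ. Of 5 root hair markers 2 were called lower in EZ, with sums of 179 to 461 FPKM in EZ and 228 to 688 FPKM in MZ. Calls in EZ were 1 higher and 0 lower of 5 endodermis markers, 0 of 6 xylem markers and 0 of 2 phloem markers. The endodermis call, SCR, was lost after quantile normalisation (0.75, adjusted p 0.0720, against 1.05) and without a filter (adjusted p 0.0540). Without a filter the root cap markers BRN1 and BRN2 lost theirs (adjusted p 0.0623 and 0.0651), and with days 3 to 5 alone the root hair marker RHD2 did (0.0624). No marker of the dividing, root cap or root hair lists averaged 0 in either label, though CYCB1;1 and PLT1 were at 0 in at least 1 library labelled MZ. The part of these cell types in the differences between labels was not tested. EZ day 6 replicate 2 and EZ day 7 replicate 2 stood apart: their root cap sums were 1033 and 838 FPKM, against at most 404 FPKM in the other libraries labelled EZ. Over all genes tested, EZ day 7 replicate 2 correlated most with a library of the other label, MZ day 6 replicate 2 (0.922). With its own replicate the correlation was 0.905. EZ day 6 replicate 2 correlated most with EZ day 7 replicate 2 (0.906). Estimated depth was 13.1 to 50.5 M fragments in EZ and 4.32 to 25.2 M in MZ (M, mega). The samples are bulk, so fewer cells of a type and less RNA per cell cannot be told apart.

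The first comparison asked how the alpha-expansins differ between the zone labels, averaged over the 5 ages. EXPA15, EXPA4 and EXPA6 were higher in the libraries labelled EZ, by 5.06-fold, 3.41-fold and 3.18-fold on the FPKM + 1 scale, and EXPA17 was lower, at 0.336 of the MZ value. EXPA10, EXPA14 and EXPA1 did not pass the test. By limma at an adjusted p of 0.05, 3 of the 8 were called higher, where 20.6% of the 22335 genes tested were, and EXPA17 and EXPA5 were called lower, where 7.77% were (28.4% called in all). EXPA5 entered the test only through libraries labelled MZ, where it was the higher, so its call is given no weight and is not read against that share. The median difference of the 8 genes, EZ minus MZ, was 0.42 on the log2(FPKM + 1) scale, against 0.15 over all genes tested. This median includes EXPA5 and EXPA10, each of which passed the filter only with libraries of the label where it was higher. It is therefore a description and is given no weight against the value of all genes. The balance of all calls depended on scaling between libraries: the share of calls on the higher side was 72.6% with the values as deposited, 49.9% with quantile-normalised values and 58.5% when libraries were scaled by the median of ratios. Under these scalings the median of all genes was -0.06 and 0.06, and the 8 genes kept their directions.

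**Figure D1:**
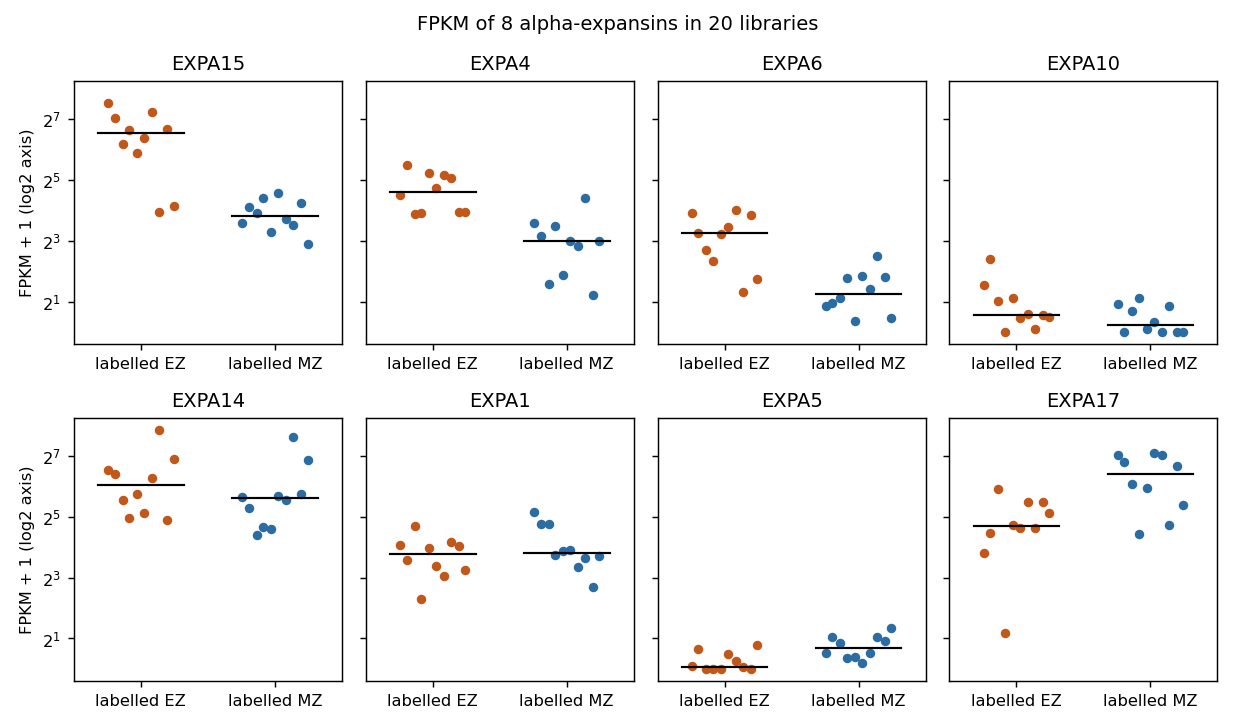
FPKM + 1 on a log2 axis for each of the 8 genes, 1 point per library, placed from left to right by age within a label, with the median of the 10 libraries as a bar. EXPA15, EXPA4 and EXPA6 lay mostly higher in the libraries labelled EZ, EXPA17 mostly higher in those labelled MZ, and 2 EZ libraries of EXPA15 lay within the MZ range.

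EXPA15, known from organ outgrowth at the shoot apex, had the largest difference of the 8. In the libraries labelled EZ it read 181 and 131 FPKM at day 3, 70.7 and 99.4 FPKM at day 4, 58.7 and 83.0 FPKM at day 5, 149 and 14.6 FPKM at day 6, and 102 and 16.7 FPKM at day 7. In those labelled MZ it read 11.1 and 16.2 FPKM at day 3, 14.2 and 20.3 FPKM at day 4, 8.76 and 22.9 FPKM at day 5, 12.2 and 10.5 FPKM at day 6, and 18 and 6.37 FPKM at day 7. In EZ 8 of 10 libraries lay above every MZ library, and the 2 exceptions were the second replicates of days 6 and 7. Both EZ libraries exceeded both MZ libraries at 4 of the 5 ages, as did 13% of genes tested at 4 ages or more. The difference was 2.34 ± 0.40 on the log2(FPKM + 1) scale (SE, n = 20; limma adjusted p 0.000778), or 2.19 above the median of all genes. Without those 2 EZ libraries it was 2.92 ± 0.23 (adjusted p 4.196e-05). They held the 2 lowest EZ values of the gene, so leaving them out must raise the difference, and the larger value is no further support.

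EXPA4 had a higher mean in EZ at 5 of 5 ages. It read 21.7 and 43.8 FPKM at day 3, 13.6 and 14.2 FPKM at day 4, 36.5 and 25.5 FPKM at day 5, 35.0 and 32.7 FPKM at day 6, and 14.3 and 14.4 FPKM at day 7 in the libraries labelled EZ. In those labelled MZ the values were 11.1 and 7.95 FPKM at day 3, 1.99 and 10.3 FPKM at day 4, 2.64 and 7.04 FPKM at day 5, 6.19 and 20.4 FPKM at day 6, and 1.32 and 6.93 FPKM at day 7. Both EZ libraries exceeded both MZ libraries at 5 of 5 ages, as did 3.32% of genes tested. Across ages the labels overlapped through 1 library, MZ day 6 replicate 2. The difference was 1.77 ± 0.31 on the log2(FPKM + 1) scale (SE, n = 20; limma adjusted p 0.000885), or 1.62 above the median of all genes.

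EXPA6 was expressed at a lower level, with a range of 1.53 to 15.04 FPKM and a median of 8.46 FPKM in the libraries labelled EZ, against 0.290 to 4.67 FPKM and a median of 1.41 FPKM in those labelled MZ. In EZ 7 of 10 libraries lay above every MZ library, and 5 of 10 MZ libraries lay below every EZ library. Both EZ libraries exceeded both MZ libraries at 3 of 5 ages, as did 24.6% of genes tested at 3 ages or more. The 2 lowest EZ libraries were again the second replicates of days 6 and 7, at 1.53 and 2.32 FPKM, where EXPA15 was also lowest. The difference was 1.67 ± 0.38 on the log2(FPKM + 1) scale (SE, n = 20; limma adjusted p 0.00484), or 1.52 above the median of all genes, and 2.15 ± 0.29 without these 2 libraries. As they were the lowest in EZ, leaving them out must raise the difference, and the larger value is no further support. In MZ the gene rested on an estimated 4.35 to 81.7 fragments per library, in EZ on 46.1 to 933.

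EXPA17, known from lateral root emergence downstream of the auxin-induced factor LBD18, ran the other way. In the libraries labelled EZ it read 12.9 and 21.04 FPKM at day 3, 58.5 and 1.29 FPKM at day 4, 25.3 and 23.4 FPKM at day 5, 44.0 and 23.95 FPKM at day 6, and 43.5 and 33.4 FPKM at day 7. In those labelled MZ it read 128 and 110 FPKM at day 3, 65.7 and 20.5 FPKM at day 4, 60.6 and 136 FPKM at day 5, 128 and 25.8 FPKM at day 6, and 100 and 40.8 FPKM at day 7. Of the MZ libraries 7 of 10 lay above every EZ library, and the lowest value of all was that of EZ day 4 replicate 2. Mean FPKM was lower in EZ at 5 of 5 ages, while both EZ libraries lay below both MZ libraries at 2 of them, as did 21.9% of genes tested at 2 ages or more. The difference was -1.58 ± 0.49 on the log2(FPKM + 1) scale (SE, n = 20; limma adjusted p 0.0272), or -1.73 relative to the median of all genes. The call was lost when any of 5 libraries was left out, namely the first replicates of EZ day 3, MZ day 4, MZ day 6 and MZ day 7 and the second replicate of MZ day 5 (differences of -1.51 to -1.35, adjusted p 0.0532 to 0.0627). It was also lost without both EZ libraries that stood apart (-1.45, adjusted p 0.0762).

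EXPA5, known from growth promoted by brassinosteroids, was close to the detection limit. It was listed at 0 in 4 of the 10 libraries labelled EZ and reached at most 0.730 FPKM there, against 0.142 to 1.54 FPKM in those labelled MZ. These values stand for an estimated 0 to 16.1 fragments per library in EZ and 1.02 to 34.7 in MZ. The difference was -0.49 ± 0.17 on the log2(FPKM + 1) scale (SE, n = 20; limma adjusted p 0.0480). Both EZ libraries lay below both MZ libraries at 3 of 5 ages. The share of all genes tested that did so at 3 ages or more was 11.4%, but the count for EXPA5 is given no weight. The gene passed the filter of 1 FPKM in 2 libraries through MZ libraries alone, which fixes its direction in part, and the call was lost when any of 13 single libraries was left out (highest adjusted p 0.101).

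Of the 3 genes that did not pass, EXPA14 was among the most abundant of the 8 in both labels. It ranged from 28.5 to 230 FPKM with a median of 64.4 FPKM in the libraries labelled EZ, and from 20.2 to 196 FPKM with a median of 47.5 FPKM in those labelled MZ. The difference of 0.42 ± 0.32 on the log2(FPKM + 1) scale had an adjusted p of 0.359 by limma (SE, n = 20). With days 3 to 5 alone it was 0.67 ± 0.21 (adjusted p 0.0393), and without both EZ libraries that stood apart 0.06 ± 0.29 (adjusted p 0.902). EXPA1, known from wall loosening where root cells leave the meristem, differed by -0.31 ± 0.29 (adjusted p 0.447), with 3.92 to 24.6 FPKM in EZ and 5.48 to 34.3 FPKM in MZ. EXPA10, known from leaf and pedicel growth, reached 4.34 FPKM at most in EZ and 1.17 FPKM in MZ, was listed at 0 in 1 EZ and 4 MZ libraries, and differed by 0.43 ± 0.21 (adjusted p 0.146). It was below 1 FPKM in 6 of 10 EZ and 9 of 10 MZ libraries, so it passed the filter only with EZ libraries.

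**Figure D2:**
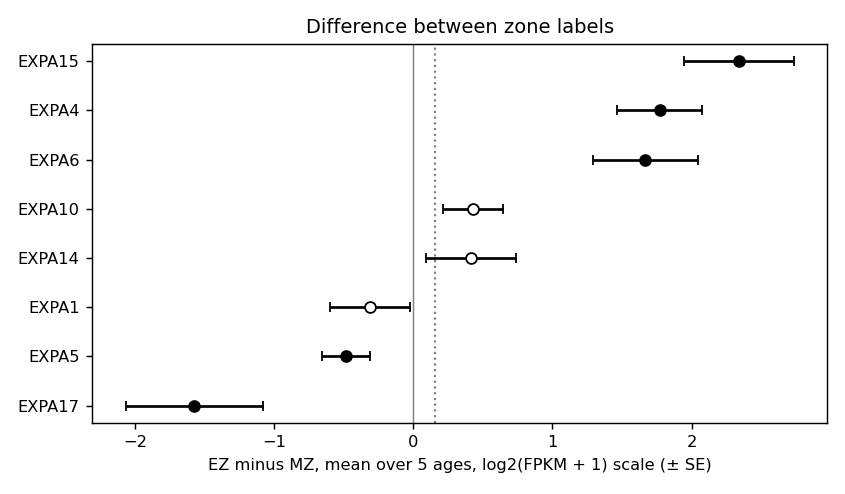
Difference between the zone labels for each gene, EZ minus MZ, as the mean over 5 ages on the log2(FPKM + 1) scale with its SE. Filled points had an adjusted p under 0.05, and the dotted line is the median of all genes tested, 0.15; EXPA15 at 2.34 and EXPA17 at -1.58 are the ends of the range.

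The order of levels differed between the labels. By median FPKM it was EXPA15 (91.2), EXPA14 (64.4), EXPA17 (24.6), EXPA4 (23.6), EXPA1 (12.7), EXPA6 (8.46), EXPA10 (0.492) and EXPA5 (0.0499) in the libraries labelled EZ. In those labelled MZ it was EXPA17 (83.1), EXPA14 (47.5), EXPA15 (13.2), EXPA1 (12.9), EXPA4 (6.98), EXPA6 (1.41), EXPA5 (0.628) and EXPA10 (0.170). Among neighbours in these orders, the means ± SD were apart only for EXPA6 over EXPA10 in EZ. EXPA17 exceeded EXPA4 in 4 of 10 EZ libraries, and EXPA15 exceeded EXPA1 in 4 of 10 MZ libraries, so those pairs had no steady order.

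The summed FPKM of the 8 genes overlapped between the labels, at 153 to 339 (median 218) in EZ and 91.2 to 271 (median 193) in MZ, while its make-up did not match. EXPA15 was the most abundant of the 8 in 8 of 10 libraries labelled EZ, and EXPA17 in 7 of 10 labelled MZ; EXPA14 led in the other 2 and 3. EXPA15 made up a median of 43.9% of the sum in EZ and 8.05% in MZ, and EXPA17 a median of 12.8% in EZ and 54.6% in MZ. The ratio of EXPA15 to EXPA17 within a library, which a single scaling factor per library does not alter, was 0.501 to 77.0 (median 2.86) in EZ and 0.0865 to 0.990 (median 0.162) in MZ. It was above 1 in 8 of 10 EZ libraries and in 0 of 10 MZ libraries. EXPA15 and EXPA17 are the ends of the range of differences between labels, so this ratio restates their differences and is no further support. The upper end in EZ is 1 library, EZ day 4 replicate 2, where EXPA17 read 1.29 FPKM, and the next highest ratio was 14.1. The EZ libraries below 1 were EZ day 6 replicate 2 and EZ day 7 replicate 2, at 0.610 and 0.501.

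**Figure D3:**
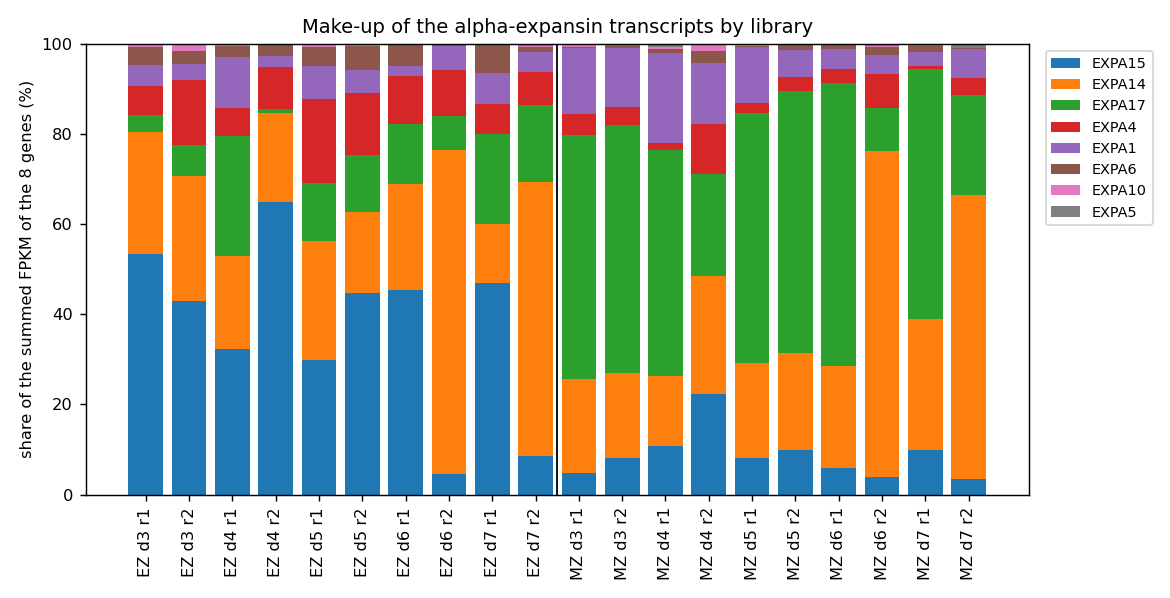
Share of each gene in the summed FPKM of the 8 alpha-expansins, 1 bar per library, those labelled EZ left of the line and those labelled MZ right of it (d, day; r, replicate). EXPA15 leads in 8 EZ bars, EXPA17 in 7 MZ bars, and EXPA14 holds 60.7% to 72.4% of the second replicates of days 6 and 7 in both labels.

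At single ages, with 2 libraries against 2, no member was called by limma in the difference between labels, where 2.06% of genes were called at day 3, 0.0179% at day 4, 0.278% at day 5, 0.278% at day 6 and 0.0940% at day 7. The members with an unadjusted p under 0.05 numbered 5 at day 3 (against 20.5% of all genes tested), 1 at day 4 (against 10.3%), 3 at day 5 (against 18.9%), 2 at day 6 (against 15.8%) and 1 at day 7 (against 13.8%). EXPA4 was among them at days 3, 5, 6 and 7, EXPA15 at days 3 to 6 and EXPA6 at days 3 and 5, while EXPA17 was among them at day 3. EXPA10 was also counted at day 3 (limma unadjusted p 0.00614). It passed the filter only with EZ libraries, where it was the higher, so it is given no weight against that share. EXPA15 differed by 3.43 at day 3 (adjusted p 0.0581), 2.24 at day 4, 2.21 at day 5, 1.97 at day 6 and 1.85 at day 7, each ± 0.89 on the log2(FPKM + 1) scale. For EXPA4 the values were 1.62, 1.36, 2.54, 1.49 and 1.84, each ± 0.69, and for EXPA6 2.69, 1.06, 2.23, 0.71 and 1.65, each ± 0.85. For EXPA17 they were -2.78, -1.70, -1.86, -0.81 and -0.73, each ± 1.10.

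The second comparison asked whether the genes change with age within a label. None of the 8 passed in the linear trend per day, where 0.0134% of genes were called in EZ and 0.918% in MZ. None passed in the test of any difference among ages either, where 0.0537% were called in EZ and 0.412% in MZ. At an unadjusted p under 0.05 the trend test held 2 members in EZ (against 8.33% of all genes tested) and 2 in MZ (against 13%), and the test among ages 1 in EZ (against 7.99%) and 0 in MZ (against 9.47%). In EZ these were EXPA15 and EXPA10 for the trend and EXPA10 among ages. EXPA10 passed the filter only with EZ libraries of days 3 to 5, where it was highest, so it is given no weight against these shares. The difference between the slopes of the 2 labels was called by limma for 0 of the 8 (against 0.00895% of genes) and for 0 at an unadjusted p under 0.05 (against 6.11%), with a lowest adjusted p of 0.871.

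EXPA1 had the lowest adjusted p of any age trend, in the libraries labelled MZ. It read 34.3 and 26.3 FPKM at day 3, 26.2 and 12.2 FPKM at day 4, 13.5 and 14.1 FPKM at day 5, 9.15 and 11.5 FPKM at day 6, and 5.48 and 12.2 FPKM at day 7. The 2 values of day 3 lay above those of days 5, 6 and 7, and the slope was -0.42 ± 0.14 per day on the log2(FPKM + 1) scale (SE, n = 20; limma adjusted p 0.207). In the libraries labelled EZ its means by age stayed between 11.9 and 14.3 FPKM, but replicates differed widely. They read 24.6 and 3.92 FPKM at day 4, 7.38 and 16.9 FPKM at day 6, and 15.2 and 8.52 FPKM at day 7. The difference between its slopes in the 2 labels was not called (limma adjusted p 0.871). EXPA15 in EZ and EXPA10 in EZ had slopes of -0.45 ± 0.20 and -0.31 ± 0.11 per day (adjusted p 0.587 and 0.536). The slope of EXPA15 was -0.20 without EZ day 7 replicate 2, -0.29 without EZ day 6 replicate 2 and -0.71 without EZ day 7 replicate 1.

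**Figure D4:**
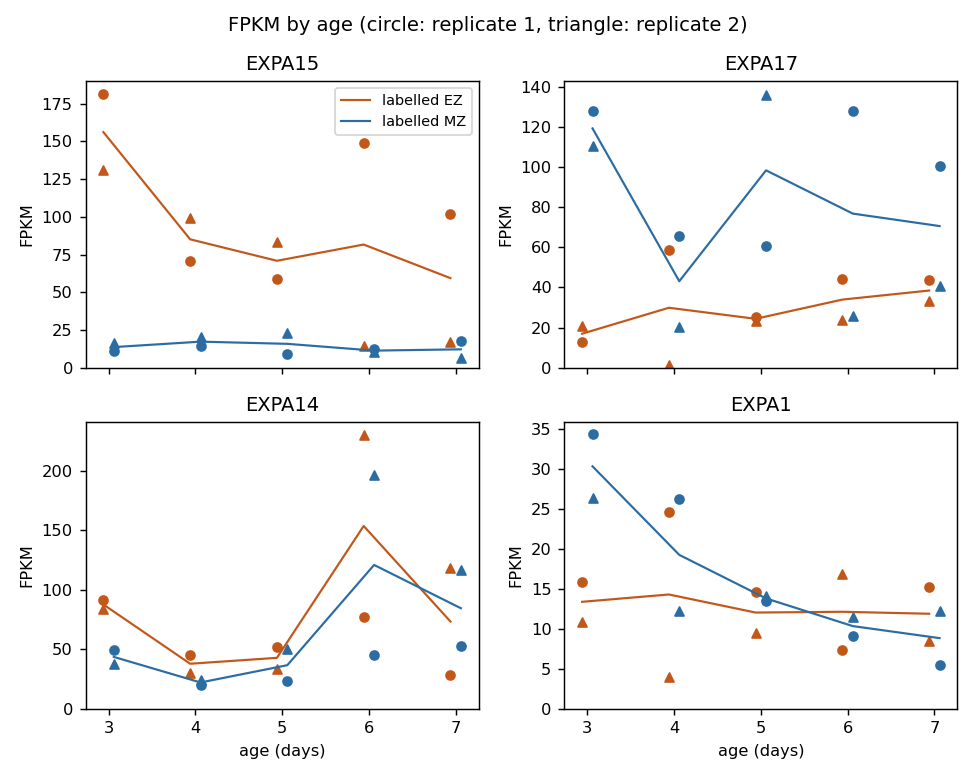
FPKM by age in days for EXPA15, EXPA17, EXPA14 and EXPA1, with lines through the means of the libraries labelled EZ and MZ, circles for replicate 1 and triangles for replicate 2. EXPA1 in MZ has its highest mean at day 3, 30.3 FPKM, and the triangles of days 6 and 7 stand high for EXPA14 in both labels and low for EXPA15 in EZ.

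EXPA14, which LBD18 also activates in lateral root emergence, set apart the second replicates of the 2 oldest ages in both labels. Its values were 230 and 118 FPKM in replicate 2 of EZ days 6 and 7 and 196 and 116 FPKM in replicate 2 of MZ days 6 and 7. In replicate 1 of the same groups it read 76.8 and 28.5 FPKM in EZ and 45.6 and 52.6 FPKM in MZ. At days 3 to 5 it read 30.2 to 91.3 FPKM in EZ and 20.2 to 50.1 FPKM in MZ, so the 4 high libraries lay above all 16 others. Its slope in MZ was 0.37 ± 0.16 per day (limma adjusted p 0.334). Summed root cap markers in the 4 libraries were 1033 and 838 FPKM in EZ and 1666 and 1119 FPKM in MZ, and summed xylem markers 26.5 and 59.9 FPKM in EZ and 26.1 and 18.5 FPKM in MZ. Root cap sums of 1092 and 1376 FPKM also occurred in MZ day 3 replicate 2 and MZ day 6 replicate 1, where EXPA14 read 37.8 and 45.6 FPKM. The lowest xylem sum, 7.91 FPKM, was that of EZ day 5 replicate 1, where EXPA14 read 52.1 FPKM. The part of these cell types in the EXPA14 values was not tested. With these 4 libraries left out, EXPA15, EXPA4, EXPA6 and EXPA17 kept their calls between labels, at 2.76, 2.11, 2.12 and -1.81 (highest adjusted p 0.0485). The 4 libraries hold the lowest EZ values of EXPA15 and EXPA6 and the highest MZ value of EXPA4, so the larger differences of these genes are no further support.

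Among themselves, EXPA6 and EXPA15 varied most alike. Over the 20 libraries the correlation of their log2(FPKM + 1) values was 0.91, and it was 0.88 within the 10 libraries labelled EZ and 0.56 within the 10 labelled MZ. The value within EZ leans on EZ day 6 replicate 2 and EZ day 7 replicate 2, the lowest EZ libraries for both genes. A correlation without these 2 libraries is not given. EXPA4, the third gene higher in EZ, correlated at 0.66 with EXPA6 over all libraries, but at 0.20 within EZ and 0.34 within MZ. EXPA15 and EXPA17 correlated at -0.50 over all libraries, at -0.18 within EZ and at 0.23 within MZ. These are descriptions: points share labels, depth and the make-up of their library. No 32-base word of the EXPA4, EXPA6 and EXPA17 transcripts occurred in another gene, and at most 0.334% of the words of any member did.

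**Figure D5:**
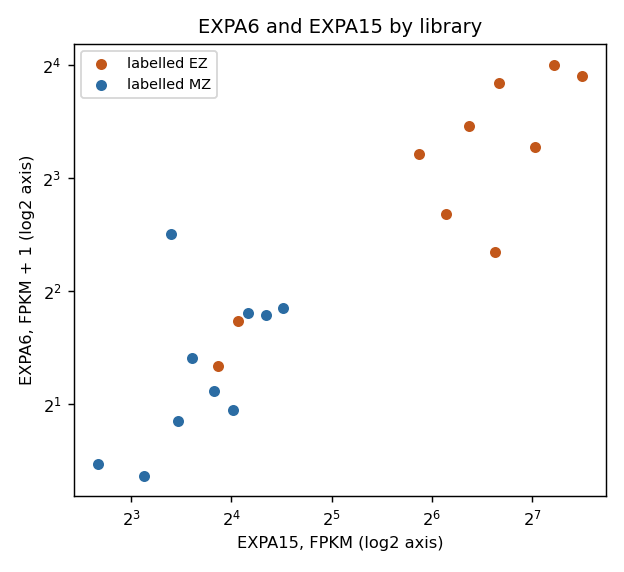
FPKM of EXPA15 (x axis) and FPKM + 1 of EXPA6 (y axis), both on log2 axes, 1 point per library coloured by label. The 2 EZ points among the MZ points are EZ day 6 replicate 2 and EZ day 7 replicate 2, with EXPA15 at 14.6 and 16.7 FPKM.

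The genes most like each member were sought among 12166 others by Pearson correlation over the 20 libraries. For EXPA15 these were MIPS3 (AT5G10170), an inositol phosphate synthase, and NRPC2 (AT5G45140), a subunit of RNA polymerase III, at 0.950 and 0.943. For EXPA6 they were AT1G01210, described as an RNA polymerase subunit, and CPN20 (AT5G20720), a plastid co-chaperonin, at 0.948 and 0.944. For EXPA4 they were AT5G54970, of unknown function, and HVA22C (AT1G69700), at 0.934 each. The likeness was 0.900 for EXPA17 with ICME-LIKE1 (AT1G26120) and NF-YC4 (AT5G63470), a subunit of a transcription factor. EXPA14 was most like ARF10 (AT2G28350), an auxin response factor, and AT5G60630, at 0.899 and 0.877. The members near the detection limit and EXPA1 had less close partners, at 0.769 to 0.808: SADHU5-1 (AT4G01525) and TSPO (AT2G47770) for EXPA1, AT1G29730 and ACOS5 (AT1G62940) for EXPA5, and AT2G25870 and GR-RBP6 (AT1G18630) for EXPA10. Correlations over the 20 libraries include the difference between the labels. The partners were picked by these same libraries, so the values within a label are descriptions and no separate check. The level that chance gives for the best of 12166 genes was not computed. Within the 10 libraries labelled EZ the correlation was 0.94 for MIPS3 and 0.87 for NRPC2 with EXPA15, and within the 10 labelled MZ it was 0.72 and 0.86. HVA22C and EXPA4 correlated at 0.73 within EZ and 0.89 within MZ, and ICME-LIKE1 and EXPA17 at 0.90 and 0.77.

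The rest of the expansin family holds 27 genes of the table, of which 16 were tested between labels. By limma 1 of these was called higher in EZ and 3 lower, where 20.6% and 7.77% of all genes tested were (28.4% called in all). Their median difference was -0.29 on the log2(FPKM + 1) scale, against 0.15 over all genes. EXPB3 (AT4G28250), a beta-expansin, averaged 9.11 ± 3.10 FPKM in EZ and 1.92 ± 0.754 FPKM in MZ (SD, n = 10 each), a difference of 1.77 ± 0.23 (adjusted p 0.000193). EXPA12 (AT3G15370) averaged 1.95 ± 1.18 FPKM in EZ and 7.77 ± 3.69 FPKM in MZ, and EXLA1 (AT3G45970), an expansin-like protein, 11.8 ± 4.58 FPKM in EZ and 19.6 ± 3.62 FPKM in MZ. EXPA7 (AT1G12560), of root hair cells, averaged 40.1 ± 21.03 FPKM in EZ and 88.2 ± 40.1 FPKM in MZ. EXPA18, the other root hair expansin, did not pass, at -0.40 ± 0.24 (limma adjusted p 0.226). The calls of EXPB3, EXPA12, EXLA1 and EXPA7 were kept under both scalings named above.

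In a list of 20 genes of wall acidification, wall synthesis and xyloglucan remodelling, limma called 1 higher in EZ and 5 lower. Of all genes tested, 20.6% were called higher and 7.77% lower, or 28.4% in all. The median difference of the list was -0.24 on the same scale, against 0.15 over all genes. The proton pumps AHA1 (AT2G18960) and AHA2 (AT4G30190), which acidify the wall in which expansins work, were lower by limma, at 103 ± 14.3 FPKM in EZ against 149 ± 30.6 FPKM in MZ, and at 279 ± 59.2 FPKM in EZ against 440 ± 94.4 FPKM in MZ (SD, n = 10 each). The cellulose synthase CESA1 (AT4G32410), its microtubule linker CSI1 (AT2G22125) and the xyloglucan enzyme XTH19 (AT4G30290) differed by -0.71 ± 0.14, -0.43 ± 0.13 and -0.53 ± 0.17. XTH20 (AT5G48070) was the called gene on the higher side, at 1.21 ± 0.32. All 6 kept their calls under both scalings, while CSI1 lost its call without both EZ libraries that stood apart (-0.35, limma adjusted p 0.0922). CSI1 and XTH19 both lost it without the second libraries of days 6 and 7 (-0.40 and -0.50, adjusted p 0.0553 and 0.0772), and XTH19 also without a filter (-0.53, adjusted p 0.0578). Markers of wounding and protoplasting, which include the xyloglucan enzyme TCH4, had 1 higher and 3 lower genes of 5 in EZ, with sums of 1001 to 1632 FPKM in EZ and 1372 to 1894 FPKM in MZ, and their part in these differences was not tested. The higher gene, TCH2, kept its direction but lost its call under 5 of 11 alternative settings, median-of-ratios scaling among them (0.38, adjusted p 0.137).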

How the data were processed

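The deposited table holds FPKM per gene and library as made by the authors, with no read counts. Cufflinks 2.1.1, TopHat2 2.0.13 and the build TAIR10 are named in the submitters' processing notes; their roles and settings are not given in the sources used here. Symbols, descriptions and transcript lengths came from RefSeq TAIR10.1 by locus tag (32481 of 33201 genes). That build name differs, so no positions, promoter motifs or sequences are given. Library depth was estimated from the steps between low FPKM of single-transcript genes of at least 2000 bp, where 69.4% to 88.1% of low values lay within 0.1 of whole fragments. Fragments per gene are estimates from it.

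The 22335 genes that reached 1 FPKM in 2 or more libraries entered the tests as log2(FPKM + 1), a scale that shrinks the differences of weakly expressed genes. Means of 10 groups were fitted with limma 3.58.1 in R 4.3.3 over all 20 libraries, which shared 1 estimate of spread, with two-sided tests and Benjamini-Hochberg adjustment over all genes within a contrast. The code was tested on simulated data. Named are the 8 members, the 2 genes most alike to each (group mean of at least 10 FPKM, under 50% of 32-base words in other genes), and called genes of the other lists. Members, lists and rules were chosen with earlier results of these data known.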

Additional observations from a re-analysis of the deposited data

Results flagged for a closer look

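Among the 10 libraries of a label, 4 of 16 sets of values held a library that stood farther from its nearest neighbour than Dixon's criterion allows, which chance gives for about 1 set in 20 if values are normally distributed; FPKM values are skewed. EXPA14 read 230 FPKM in EZ day 6 replicate 2, with the next highest EZ library at 118 FPKM. EXPA10 read 4.34 FPKM in EZ day 3 replicate 2, with the next at 1.94 FPKM. MZ day 6 replicate 2 was the highest library labelled MZ for both EXPA4 and EXPA6, at 20.4 FPKM and 4.67 FPKM, with the next at 11.1 FPKM and 2.60 FPKM. On the log2(FPKM + 1) scale, which the tests use, none of these 4 passed, and 1 of the 16 sets did: EXPA17 in EZ day 4 replicate 2, at 1.29 FPKM, the lowest library labelled EZ, with a gap of 0.553 of the range against a criterion of 0.466.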

How the results depend on the processing

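The calls of EXPA15, EXPA4 and EXPA6 between labels were kept in all 20 fits that left out 1 library and in all 11 other settings (3 members higher in 10 of these, 4 with days 3 to 5 alone). The number of lower members ranged from 0 to 2 over the fits without 1 library, and was 1 with a pseudocount of 5, no filter, a filter at 5 FPKM, library weights, days 3 to 5 alone, both EZ libraries that stood apart left out, or the second libraries of days 6 and 7 left out, the last chosen after seeing the data. EXPA5 was not tested in those that used a filter at 5 FPKM, days 3 to 5 or 16 libraries. EXPA17 lost its call without a filter, with the same difference of -1.58 (adjusted p 0.0793). EXPA5 lost it with a pseudocount of 5 (-0.13, adjusted p 0.0651) and, with the same difference of -0.49, with library weights (0.0554). The causes were not tested. At day 3 the number of higher members was 2 with a pseudocount of 5 (3.09% of all genes called higher), 1 with a filter at 5 FPKM (2.88%) or quantile normalisation (2.24%) and 3 with library weights (8.03%), against 0 (1.38%), and 0 to 2 without 1 library. EXPA15 was among those called under each named setting, and EXPA6 with library weights. The further member with a pseudocount of 5 or library weights may be EXPA10, which passed the filter only with EZ libraries. Those counts are given no weight against the shares. At day 5 it was 3 with library weights (7.83%), against 0 (0.188%), and 0 to 1 without 1 library. Leaving out 1 library turned the sign at single ages for EXPA17 (day 4, -4.05 to 0.65; day 6, -1.94 to 0.32) and EXPA6 (day 6, -0.62 to 2.05). Over all settings the genes called numbered 5217 to 6636 between labels, 0 to 56 for the EZ trend, 4 to 383 for the MZ trend, 1 to 172 and 1 to 252 among ages in EZ and MZ, 0 to 74 for the slope difference, and 2 to 2504, 1 to 24, 1 to 2291, 11 to 449 and 2 to 415 at days 3 to 7. Labels do not say that replicate numbers pair the samples, and deviations correlated above 0.1 for 12 of 45 pairs of groups. With the replicate block 6636 genes were called between labels, and 3 members higher and 2 lower, as without it. EXPA5 and EXPA10 rest on at most 72.2 estimated fragments a library, also in the deepest libraries, which limits their precision.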

Other observations

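EXPA9 (AT5G02260), which is not among the 8 genes and was picked after its values were seen, was the most abundant expansin of the table. It averaged 884 ± 376 FPKM in the libraries labelled EZ and 1002 ± 391 FPKM in those labelled MZ (SD, n = 10 each), more than the 8 genes together in every library. It differed by -0.20 ± 0.20 on the log2(FPKM + 1) scale (limma adjusted p 0.484).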
